A study of Mus musculus with 24 samples.

Results

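Hspa1a and Hspa1b, the 2 mouse genes of inducible Hsp70, were followed in both hemispheres of mice with a stroke or sham surgery. They are 2 of 19505 genes named in the platform annotation and were taken by their symbol. Each had 1 probe set, TC1700001936.mm.2 for Hspa1a and TC1700001935.mm.2 for Hspa1b, among 22206 tested probe sets. In 8 male C57Bl/6j mice aged 8 to 10 weeks the middle cerebral artery was occluded with an intraluminal filament for 90 min and then reperfused for 30 min (MCAO), so that brains were taken 2 h after onset. The other 4 mice, of the same strain, sex and age, had sham surgery. The hemisphere on the side of surgery (ipsilateral, IP) and the opposite one (contralateral, CL) of each mouse were hybridised to separate whole-transcript arrays, giving 24 arrays in the groups MCAO IP, MCAO CL, sham IP and sham CL. Values are log2 signals per probe set, as the authors deposited them. Whole hemispheres were used, so tissue inside and outside the territory of the artery was measured together, and more cells with a transcript cannot be told apart from more transcript per cell.

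Inducible Hsp70 is a cytosolic chaperone that binds unfolded stretches of other proteins, releases them in cycles of ATP hydrolysis and hands them on for refolding or degradation. Its genes are nearly silent in unstressed cells and are switched on by heat shock transcription factors, which are freed when unfolded proteins draw chaperones away and which bind inverted repeats of GAA in promoters. In the brain the Hsp70 transcript and protein are long known to appear after ischaemia, in neurons, glia and vessel cells. Both genes lack introns, lie side by side in the major histocompatibility region of chromosome 17 and code for nearly the same protein, so probes for one can also capture transcripts of the other.

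The promoters show how alike the genes are. RefSeq (GRCm38.p6) gives for each a window of 300 bases, 250 before the start of the transcript and 50 from it. The Hspa1a window is at chr17:34972107-34972406 and the Hspa1b window at chr17:34959189-34959488, both on the minus strand. They are printed 5′ to 3′, and capitals mark the bases that differ between them.
Hspa1a: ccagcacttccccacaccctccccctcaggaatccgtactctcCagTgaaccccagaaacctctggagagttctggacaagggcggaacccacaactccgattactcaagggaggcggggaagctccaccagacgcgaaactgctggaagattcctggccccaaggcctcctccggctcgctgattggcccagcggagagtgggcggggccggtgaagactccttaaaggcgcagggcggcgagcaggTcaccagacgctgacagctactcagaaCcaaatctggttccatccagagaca
Hspa1b: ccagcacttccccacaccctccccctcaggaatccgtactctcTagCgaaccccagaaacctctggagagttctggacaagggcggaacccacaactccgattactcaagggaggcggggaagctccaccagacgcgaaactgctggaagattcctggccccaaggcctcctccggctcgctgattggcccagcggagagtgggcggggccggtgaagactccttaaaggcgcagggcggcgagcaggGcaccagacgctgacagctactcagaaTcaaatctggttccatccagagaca

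The windows were identical at 296 of 300 bases (98.7%). Counted from 1 at the 5′ end of the window, the differences from Hspa1a to Hspa1b are C44T, T47C, T249G and C276T. A pair of inverted units of the heat shock element, GAANNTTC, occurred once in each window with its first base at -104 from the start. It lies in the same stretch in both genes, in which capitals mark the motif.
Hspa1a and Hspa1b: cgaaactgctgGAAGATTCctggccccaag

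GAANNTTC was found in 7.86% of the 32851 promoter windows of that length in the table. The other arrangement of the units, TTCNNGAA, had 0 matches in either gene, against 8.52% of all windows. The CCAAT box had 1 match in each gene, with its first base at -67, and occurred in 37.4% of windows. The GC box GGGCGG had 3 matches in each, at -170, -49 and -16, and occurred in 35.7% of windows. TATAAA had 0 matches in these windows and occurred in 13.6% of all. All motifs were searched on both strands, and the matches did not overlap.

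Of the 24 arrays, 20 had a median Pearson correlation across probe sets of 0.981 to 0.989 with each other. Those of sham mouse 1 and MCAO mouse 3, 4 in all, stood apart, with 0.328 to 0.55. Their SD over probe sets was 1.44 to 1.54, against 2.33 to 2.41 on the 20 others. The 95th percentile of their negative control probe sets, used here as the background level, was 7.41 to 7.61, against 5.17 to 5.74. Results are therefore given on all 24 arrays and on the 20 others. On the 20, the 5 neuronal markers averaged 10.13 to 10.49 and were above background on every array, as were 5 of 5 astrocyte and 3 of 3 oligodendrocyte markers. In each group 2 of 4 microglia and 3 of 4 endothelial markers were above background on every array of the 20. The 4 markers of neutrophils and monocytes averaged 1.83 to 2.44 and were not above background on every array of any group.

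Hspa1b was higher on the occluded side of all 8 mice, and Hspa1a on that of 7. In the occluded hemispheres Hspa1b had a log2 signal of 5.81 at the lowest, 7.00 at the median and 7.94 at the highest. On the opposite side of the same mice it was 5.04, 5.47 and 5.92. In sham mice 1 to 4 it was 5.88, 5.34, 5.04 and 5.73 in the IP hemisphere and 6.18, 5.92, 4.95 and 5.59 in the CL hemisphere. The occluded hemispheres of mice 5 and 1, at 5.81 and 6.14, lay within the range of the other groups, and the other 6 lay above it. The share of all probe sets with such a pattern was not counted. Hspa1b was above background on 8 of 8 MCAO IP arrays, 2 of 8 MCAO CL arrays and 1 of 4 arrays on each side of sham mice.

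Hspa1a had a lowest, median and highest log2 signal of 6.07, 6.92 and 8.13 in the occluded hemispheres. On the opposite side it was 5.40, 5.68 and 7.61, and the 7.61 belonged to mouse 3. In sham mice 1 to 4 it was 6.30, 5.59, 5.66 and 5.52 on the IP side and 6.86, 5.88, 5.14 and 5.89 on the CL side. On the 20 arrays, the occluded hemispheres overlapped the opposite hemispheres in their lowest value, and no sham array reached them. A full separation of the MCAO IP from the sham IP arrays was found in 1.4% of all probe sets there. The share separated from both sham sides was not counted. Hspa1a was above background on 7 of 8 MCAO IP arrays, 4 of 8 MCAO CL arrays, and 2 of 4 arrays on each side of sham mice.

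**Figure D1:**
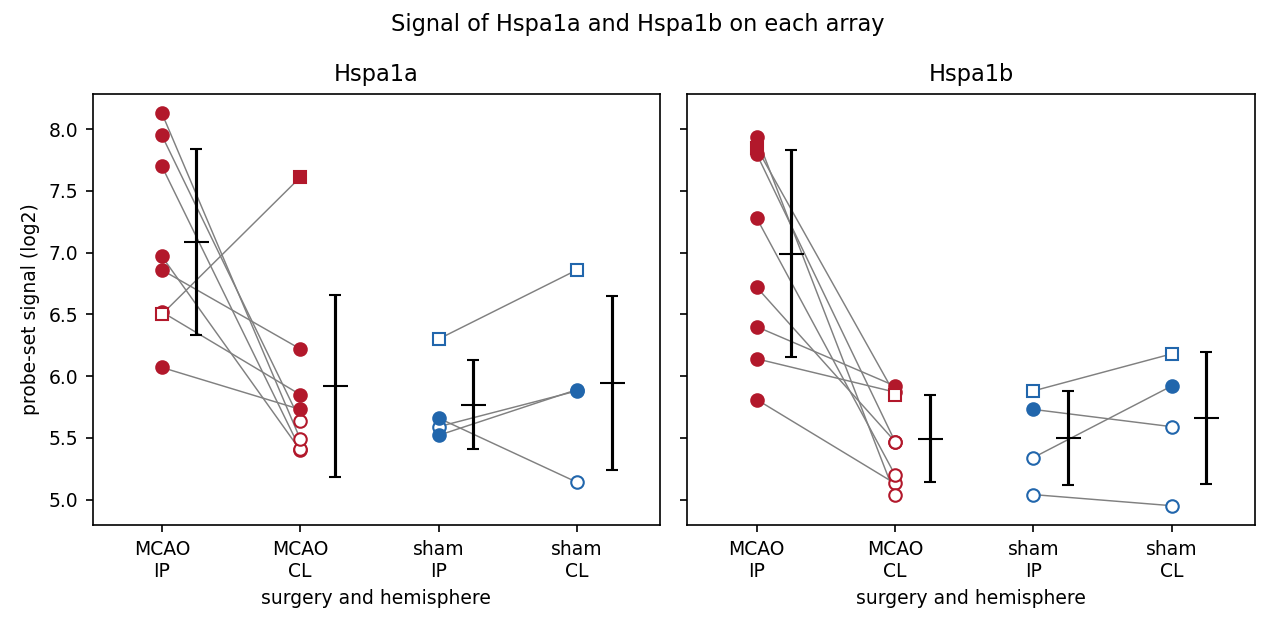
Log2 probe-set signal of Hspa1a and Hspa1b (y axis) on the 24 arrays by surgery and hemisphere (x axis), with lines joining the hemispheres of a mouse. Filled symbols are above the 95th percentile of negative controls, squares are the 4 arrays that stood apart, and bars give the mean ± SD; the mean is highest in MCAO IP for both genes, and the square at 7.61 is the CL array of MCAO mouse 3 for Hspa1a.

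The order of the 4 groups was MCAO IP first for both genes, and the other means lay close together. Hspa1b averaged 6.99 ± 0.84 (SD, n = 8) in MCAO IP, 5.49 ± 0.35 (n = 8) in MCAO CL, 5.50 ± 0.38 (n = 4) in sham IP and 5.66 ± 0.53 (n = 4) in sham CL. Hspa1a averaged 7.09 ± 0.75, 5.92 ± 0.74, 5.77 ± 0.36 and 5.94 ± 0.70 in the same groups. The 3 lower groups of each gene differed from each other by less than 1 SD. Without the 4 arrays Hspa1a had a mean of 7.17 ± 0.77 in MCAO IP, 5.68 ± 0.29 in MCAO CL, 5.59 ± 0.07 in sham IP and 5.64 ± 0.43 in sham CL. Hspa1b was then at 6.87 ± 0.82, 5.44 ± 0.35, 5.37 ± 0.34 and 5.49 ± 0.49.

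The first comparison set the occluded hemisphere against the opposite one of the same mouse. In MCAO mice 1 to 8 the IP minus CL difference of Hspa1b was 0.28, 0.48, 2.00, 2.33, 0.68, 1.25, 2.08 and 2.90 on the log2 scale. The CL array was above background in 2 of the 8 mice, so in the others the difference is taken against a signal not told apart from background and is no exact ratio, and the fitted values share this limit. In limma with mouse as a block Hspa1b was higher on the occluded side by 1.5 ± 0.25 SE (adjusted p = 0.0165, higher in 8 of 8 mice). Of all probe sets tested 0.0856% were called in either direction at an adjusted p under 0.05, and 0.707% were higher on the occluded side in every MCAO mouse. On the 20 other arrays Hspa1b was not called (1.43 ± 0.28, adjusted p = 0.0908, higher in 7 of 7 mice).

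The differences of Hspa1a in MCAO mice 1 to 8 were 0.67, 0.64, -1.11, 2.31, 0.34, 1.57, 2.29 and 2.64. Mouse 3 alone was lower on the occluded side. The CL array was above background in 4 of the 8 mice, and in 3 of 7 without mouse 3, so most of these differences are no exact ratios either. On the occluded side alone mice 4, 7 and 8 had the highest Hspa1a signals, at 7.95, 7.70 and 8.13. In limma Hspa1a was not called on all arrays (1.17 ± 0.31, adjusted p = 0.591). On the 20 other arrays it was at 1.49 ± 0.26, higher in 7 of 7 mice, and missed the threshold (adjusted p = 0.0542 in limma). There 0.135% of probe sets were called, and 1.22% were higher on the occluded side in every MCAO mouse. Without MCAO mouse 3 and with sham mouse 1 kept, Hspa1a was called (1.49, adjusted p = 0.0332), while Hspa1b was not (1.43, adjusted p = 0.0646).

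**Figure D2:**
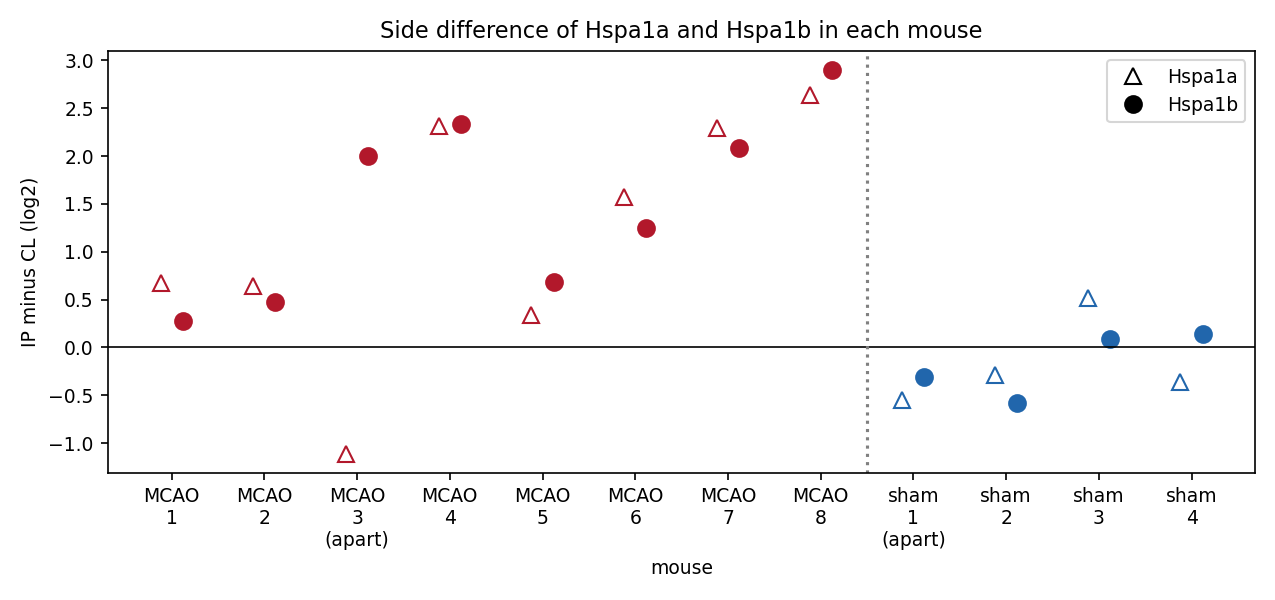
IP minus CL difference of log2 signal (y axis) in each of the 12 mice (x axis), for Hspa1a (open triangles) and Hspa1b (filled circles). MCAO mice 4, 7 and 8 lie between 2.08 and 2.90 for both genes, sham mice lie between -0.58 and 0.52, and MCAO mouse 3 has 2.00 for Hspa1b and -1.11 for Hspa1a.

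The side differences of the 2 genes were compared directly. In MCAO mice the side difference of Hspa1b minus that of Hspa1a was 0.33 ± 1.15 (SD, n = 8, exact two-sided sign-flip permutation p = 0.734, where 0.00781 is the smallest possible). It was positive in 4 of 8 mice. Without MCAO mouse 3 it was -0.07 ± 0.28 (SD, n = 7, exact permutation p = 0.547), positive in 3 of 7, which does not show that the genes respond alike. Across the 8 MCAO mice the side differences had a Pearson r of 0.50 (exact permutation p = 0.208, adjusted p = 0.208) and a Spearman rho of 0.67 (exact permutation p = 0.0831, adjusted p = 0.111). With the farthest mice on Hspa1a, 3 and 8, left out, r was 0.95 over 6 mice. Over the 7 MCAO mice without mouse 3, r was 0.96 (exact permutation p = 0.00437, adjusted p = 0.0175) and rho 0.86 (exact permutation p = 0.0238, adjusted p = 0.0476), and r was 0.99 over the 5 left without mice 5 and 8. The adjustment was over these 4 correlations, and the genes may share probe signal.

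**Figure D3:**
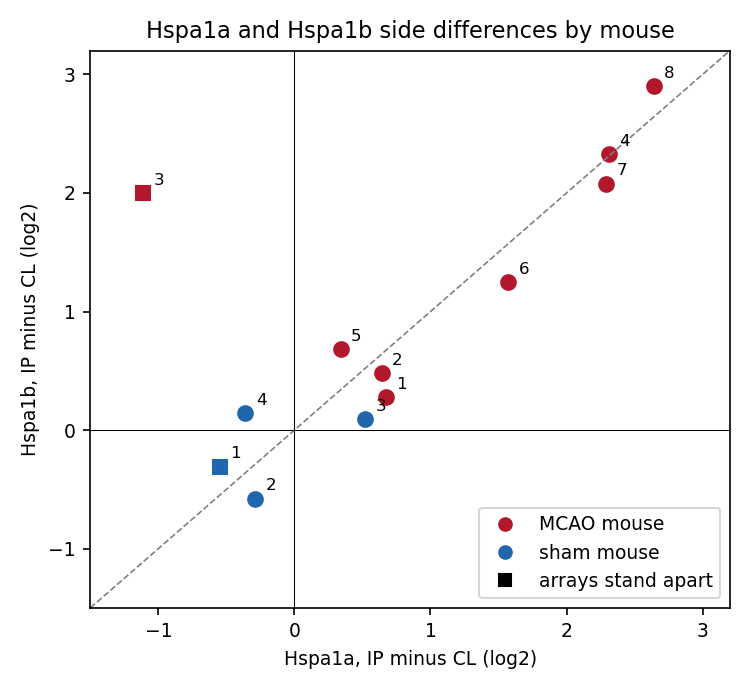
IP minus CL log2 difference of Hspa1b (y axis) against that of Hspa1a (x axis) for the 8 MCAO and 4 sham mice, numbered as in the labels, with the dashed line marking equal values. MCAO mouse 3 (square) at -1.11 and 2.00 is far from the line, and the other 7 MCAO mice lie along it with a Pearson r of 0.96.

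Sham surgery gave the background of the side comparison. In sham mice 1 to 4 Hspa1b differed by -0.31, -0.58, 0.09 and 0.14 between the IP and CL hemispheres, and Hspa1a by -0.55, -0.29, 0.52 and -0.36. Neither gene was called in limma, with -0.16 ± 0.35 SE for Hspa1b (adjusted p = 0.897) and -0.17 ± 0.44 for Hspa1a (adjusted p = 0.917). Without the 4 arrays the values were -0.11 ± 0.42 and -0.05 ± 0.40. In this comparison 0.0% of probe sets were called in limma on either set of arrays, with 1390 at an unadjusted p under 0.05 on all arrays and 1220 on the 20.

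The side differences of occluded and sham-operated mice were then tested against each other. Each of the 8 MCAO mice had a greater Hspa1b difference than each of the 4 sham mice, which was so for 0.288% of probe sets. The mean side difference of Hspa1b was 1.5 ± 0.96 (SD, n = 8) in MCAO mice and -0.16 ± 0.34 (SD, n = 4) in sham mice. For the gap of 1.66 a two-sided exact permutation of the mice gave p = 0.0101, with 0.00202 the smallest possible. For Hspa1a the means were 1.17 ± 1.27 and -0.17 ± 0.47 (exact permutation p = 0.0727), and 6 of 8 MCAO mice were above every sham mouse. Without MCAO mouse 3 and sham mouse 1 the gap was 1.54 for both genes, with exact permutation p-values of 0.0333 for Hspa1b and 0.0417 for Hspa1a over 120 regroupings, where 0.00833 is the smallest possible. All 7 MCAO mice were then above the 3 sham mice for Hspa1b, as in 1.07% of probe sets. For Hspa1a 6 of 7 were, and no share of probe sets was counted for 6 of 7 or 6 of 8. These p-values are unadjusted, from 6 exact tests. Across all probe sets, limma's interaction was 1.66 ± 0.43 for Hspa1b and 1.34 ± 0.54 for Hspa1a, each with an adjusted p of 0.891. On the 20 arrays it was 1.54 ± 0.51 (adjusted p = 0.68) and 1.54 ± 0.48 (adjusted p = 0.67). Here too 0.0% were called in limma on either set, with 1138 and 1312 at an unadjusted p under 0.05.

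Between different animals, the occluded hemispheres were set against the IP hemispheres of sham mice. Hspa1b was higher by 1.49 ± 0.43 and Hspa1a by 1.32 ± 0.39, each with an adjusted p of 0.968 in limma, where 0.0045% of probe sets were called. For each gene 7 of the 8 occluded hemispheres were above every sham IP hemisphere. Neither gene thus had a separation without exception, which was found in 0.117% of probe sets. The share of probe sets with at least 7 of 8 was not counted. On the 20 other arrays all 7 were above the 3 sham hemispheres for both genes, as in 1.4% of probe sets. The differences were then 1.5 ± 0.40 for Hspa1b (adjusted p = 0.299) and 1.58 ± 0.36 for Hspa1a (adjusted p = 0.193), with 0.149% of probe sets called in limma. The comparison used the same occluded arrays as the side comparison.

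The opposite hemisphere was compared in the same way. CL hemispheres of MCAO mice differed from CL hemispheres of sham mice by -0.17 ± 0.29 for Hspa1b (adjusted p = 0.997 in limma) and by -0.02 ± 0.43 for Hspa1a (adjusted p = 0.999). Without the 4 arrays the differences were -0.04 ± 0.23 and 0.04 ± 0.20. In this comparison 0.0% of probe sets were called in limma on either set of arrays, with 81 and 1020 at an unadjusted p under 0.05.

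Hspa1l, a member of the Hsp70 family known for its expression in the testis, is the next gene beyond Hspa1a in RefSeq and lies on the opposite strand. Its log2 signal was 1.91 to 3.41 in MCAO IP, 1.98 to 3.45 in MCAO CL, 2.31 to 4.36 in sham IP and 1.72 to 3.01 in sham CL. It was above background on 0 arrays of any group, so no fold is given.

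The partners of Hsp70 were taken from a list of its pathway. Of the listed genes only Hspa1l, Hspb1, Dnajb1 and Dnajb4 were compared with background, and all measured ones enter the counts and medians below. Of 43 genes listed for the Hsp70 family, its co-chaperones, Hsp90, small heat shock proteins, chaperonins and heat shock factors, 37 had a probe set, and 0 were called in limma in either direction between the sides of MCAO brains. At an unadjusted p under 0.05, 2 were higher and 0 lower, beside 4.13% of all probe sets in either direction. Their median log2 difference was 0.13 with 27 of 37 positive, beside a median of 0.00 and 49.4% positive over all probe sets. On the 20 other arrays the median was 0.05 with 24 positive, 3 were higher and 0 lower at an unadjusted p under 0.05, beside 7.1% of all probe sets, and 0 were called. In sham mice the median was 0.07 with 25 of 37 positive on all arrays. It was -0.02 with 15 positive on the 20, again with 0 called. The interaction had a median of 0.0 with 17 positive on all arrays, and of 0.1 with 26 positive on the 20. Between the IP hemispheres of MCAO and sham mice the median was 0.34 with 33 positive on all arrays, and 0.12 with 30 positive on the 20. Over all probe sets 52.6% and 51.9% were positive there. Between the CL hemispheres it was 0.37 with 32 positive, and 0.06 with 27 positive, beside 51.2% and 52.5%. In the interaction and both comparisons between animals 0 of the 37 were called on either set of arrays.

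Among the 12 measured Hsp70 family members other than Hspa1a and Hspa1b, differences ran from -0.23 to 0.34. Hspa5, the Hsp70 of the endoplasmic reticulum, had the smallest p of these (0.30 ± 0.16, adjusted p = 0.94 in limma, higher in 7 of 8 mice). The family ran on the 20 arrays from -0.15 to 0.19.

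The J-domain co-chaperones, which deliver substrates to Hsp70 and stimulate its ATPase, were positive in 7 of 7 on all arrays, at 0.13 to 0.51 with a median of 0.26. On the 20 arrays 6 of 7 were positive, at -0.02 to 0.39 with a median of 0.13. Dnajb4, of the Hsp40 family, was at 0.51 ± 0.15 (adjusted p = 0.83 in limma), against 0.01 ± 0.21 in sham mice. It was higher in 8 of 8 MCAO mice, as were 0.707% of all probe sets. Its interaction was 0.5 ± 0.26 (adjusted p = 0.891 in limma). Its log2 signal on the 20 arrays was 7.52 to 8.14 in MCAO IP and 7.08 to 7.71 in MCAO CL, against 6.92 to 7.35 in sham IP and 7.18 to 7.39 in sham CL. The occluded hemispheres thus lay above all sham hemispheres on these arrays and overlapped the CL hemispheres of MCAO mice. A full separation of the MCAO IP from the sham IP arrays was found in 1.4% of probe sets there. On all 24 arrays it did not hold for Dnajb4, whose lowest MCAO IP signal was 5.18. Dnajb1, the main stress-induced Hsp40, was at 0.23 ± 0.17 (adjusted p = 0.94) on all arrays. On the 20 arrays it was at 0.34 ± 0.09 (adjusted p = 0.343 in limma), against 0.06 ± 0.13 in sham mice. It was higher in 7 of 7 MCAO mice there, as were 1.22% of all probe sets. Its interaction on the 20 was 0.27 ± 0.16 (adjusted p = 0.87 in limma).

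Of the 9 exchange factors and other co-chaperones, which include the Bag proteins that release ADP from Hsp70, 7 were positive, and Ahsa1, the activator of the Hsp90 ATPase, had the smallest p (0.28 ± 0.19, adjusted p = 0.94 in limma). Ahsa1 was at 0.09 ± 0.11 on the 20 arrays (adjusted p = 0.939 in limma), where the smallest p was that of Bag1, 1 of the exchange factors (0.16 ± 0.09, adjusted p = 0.807 in limma, higher in 5 of 7 mice). Hsp90aa1, the inducible cytosolic Hsp90, was at 0.53 ± 0.44 (adjusted p = 0.94 in limma) on all arrays and at -0.03 ± 0.09 on the 20. In sham mice Hsp90aa1 was at 0.58 on all arrays and at -0.19 on the 20. Hspb1, the small heat shock protein Hsp27, was above background on 0 arrays of any group, so no fold is given. Its log2 signal on the 20 arrays was 4.47 to 5.11 in MCAO IP and 3.79 to 5.37 in MCAO CL, against 4.01 to 4.16 in sham IP and 4.09 to 4.2 in sham CL (adjusted p = 0.538 in limma between the sides of MCAO brains). The chaperonin Hspd1, or mitochondrial Hsp60, was at 0.08 ± 0.20, and the heat shock factor Hsf2 at -0.15 ± 0.13, each with an adjusted p over 0.05 in limma.

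**Figure D4:**
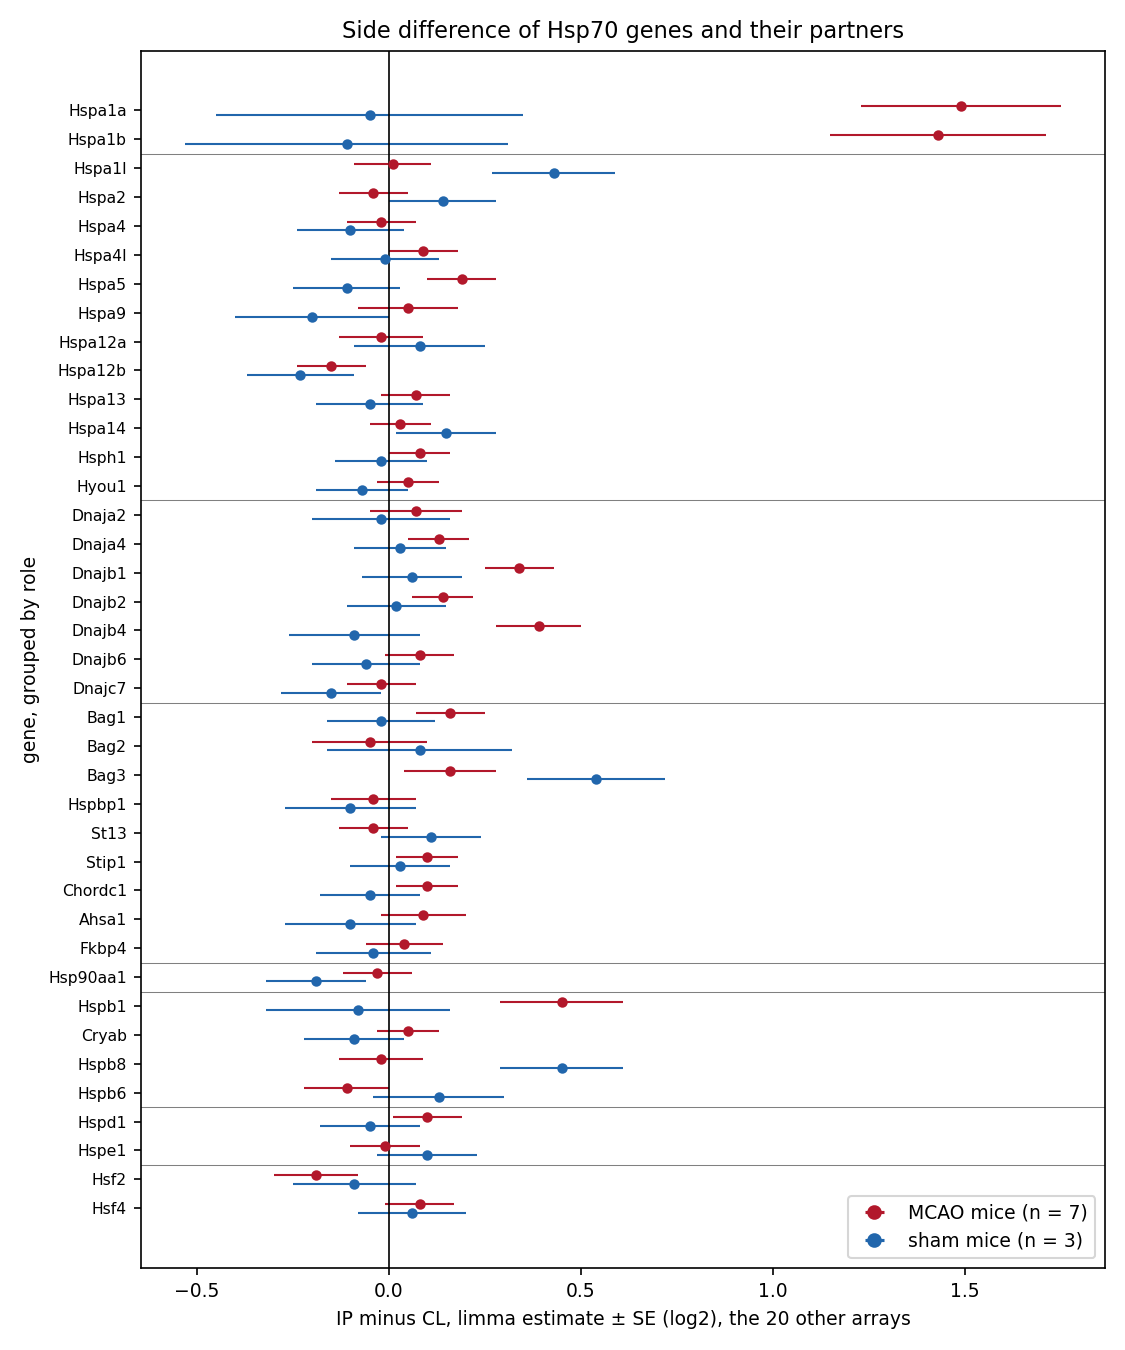
IP minus CL log2 difference ± SE from limma (x axis) on the 20 arrays for Hspa1a, Hspa1b and the 37 measured genes of the list (y axis, lines separating roles), in 7 MCAO mice and 3 sham mice. Hspa1a and Hspa1b are at 1.49 and 1.43 in MCAO mice, and the J-domain genes lie between -0.02 and 0.39. Hspb1 and Hspa1l are drawn at their fitted values although neither was above background on any array. Of the other listed genes only Dnajb1 and Dnajb4 were compared with background.

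Markers of brain and blood cells were compared between the sides beside these results. Of 29 measured markers 0 were called in limma between the sides of MCAO brains on either set of arrays. Their median difference was 0.07 on all arrays, from -0.24 to 0.40, and 0.04 on the 20, from -0.25 to 0.43. On the 20 the lowest was a choroid plexus marker and the highest a neutrophil or monocyte marker. Neither role had a marker above background on every array of any group. The neuronal markers ran there from -0.07 to 0.21, those of astrocytes from -0.03 to 0.06 and those of oligodendrocytes from 0.03 to 0.12.

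The 5 genes whose side differences followed Hspa1b most closely over the 10 mice of the 20 arrays were found among 10127 probe sets at or above the median signal. They were Eprs, a tRNA synthetase gene (Pearson r = 0.95), Cebpb, a bZIP transcription factor gene (0.94), Cdc42ep3, a Cdc42 effector gene (0.94), Cxcl14, a chemokine gene (0.92), and Fosl2, an AP-1 subunit gene (0.92). The r of Hspa1a was 0.96. Over all 12 mice r was -0.09 for Eprs, 0.63 for Cebpb, 0.90 for Cdc42ep3, 0.36 for Cxcl14, 0.76 for Fosl2 and 0.68 for Hspa1a. These genes were picked for a high r from many, and the points mix the surgery groups. Within the 7 MCAO mice r was 0.88 to 0.96 for the 5. Of these, Fosl2 had the greatest side difference in MCAO mice on the 20 arrays (0.94, adjusted p = 0.136 in limma), while that of Cxcl14 was 0.04.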

How the data were processed

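RNA of both hemispheres of 8 MCAO and 4 sham mice was measured on 24 arrays. The authors' deposited log2 signals came from Expression Console, per the submitters' processing notes. Version, normalization and build are not given in the sources used. That the scale is log2 was read from the values' range. Of 29129 probe sets 6923 controls were left out, and 22206 were tested, of which 19572 had 1 gene symbol, 0 several and 2634 none here. A gene was represented by its probe set with the highest mean. No pair of arrays was identical. The members and lists were chosen with earlier results of these data known.

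Side comparisons used limma 3.58.1 in R 4.3.3 with mouse as a fixed block on all arrays, and comparisons between animals used the 12 arrays of a side. Benjamini-Hochberg adjustment ran over all tested probe sets. The block follows from the labels, which give both hemispheres of a mouse. On the 20 arrays their deviations from group means correlated at 0.112 to 0.307 within mice. Mice of different surgery with the same number are different animals. Of the 6 exact tests, 4 permuted mice between surgery groups and 2 flipped signs within MCAO mice. The 4 arrays and the background level, the 95th percentile of 5222 negative control probe sets, were set with the data in view. From each role of the gene list, members called or with the smallest p between the sides of MCAO brains on all arrays were named. Dnajb1 and Bag1, with the smallest p of their roles on the 20 arrays, were added after their values were seen. Hspa8, the constitutive Hsp70 gene that the rule also names, had no probe set under its symbol and is not analysed here. The same held for Hsf1, Hsp90ab1, Dnaja1, Dnajb5 and Stub1 of the list. The fits were also run on simulated data. Their noise was normal and of the same size on every array, unlike the 4 arrays, so no conclusion is drawn from that run. Figures used matplotlib 3.10.9. Precision is limited by the number of mice, of which 4 had sham surgery.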

Additional observations from a re-analysis of the deposited data

Results flagged for a closer look

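The CL array of MCAO mouse 3 had a log2 signal of 7.61 for Hspa1a, farther from the other 7 MCAO CL arrays than an outlier test of Dixon's kind allows at the 95% level. This mouse is among the 2 whose arrays stood apart, and the background level of that array was 7.60. Of 12 groups tested this was the 1 found. Chance alone flags each group at a rate of about 5%, so 1 flag among 12 groups is no strong sign. The array had also been set apart beforehand on these same data. The part of this array in the Hspa1a result was not tested beyond the values without it.

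The Hspa1b side difference was greater in MCAO than in sham mice by 1.66 on all arrays (exact permutation p = 0.0101) and by 1.54 on the 20 others (exact permutation p = 0.0333). For Hspa1a the gap of 1.54 on the 20 arrays also passed when tested alone (exact permutation p = 0.0417), and the gap of 1.34 on all arrays did not (exact permutation p = 0.0727). None of these passed limma's adjustment over all probe sets.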

How the results depend on the processing

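Over the alternatives, the Hspa1b difference between the sides of MCAO brains stayed positive and near its size, while its call was not stable. The call was kept with array quality weights (1.42, adjusted p = 0.00675 in limma), mouse as a random block (1.5, 0.000354) and limma's trend and robust options (1.5, 0.00809). It was also kept with median centring (1.52, 0.0156), and with only probe sets at or above the median (1.5, 0.0168) or with 1 symbol (1.5, 0.0146). The call was lost with no replicate block (1.5, adjusted p = 0.239), with only the MCAO mice (1.5, 0.12), with quantile normalization (1.43, 0.121) and without the 4 arrays (1.43, 0.0908). Leaving out 1 mouse gave 1.30 to 1.67 (adjusted p = 0.0173 to 0.0981), with the call lost without MCAO mouse 3 (1.43), 4 (1.38), 7 (1.42) or 8 (1.30). Hspa1a gained a call with array quality weights, at 1.47 between the sides of MCAO brains (adjusted p = 0.00501) and 1.66 between occluded and sham IP hemispheres (adjusted p = 0.0445). It also did so with no replicate block on the 20 arrays, a setting added after seeing the data (1.49, adjusted p = 0.00636), where Hspa1b was called as well (1.43, adjusted p = 0.0277). Leaving out 1 mouse gave 0.96 to 1.49. The CL difference between MCAO and sham mice changed sign for Hspa1a with array weights (0.10) and without the 4 arrays (0.04), and for Hspa1b with array weights (0.04). Leaving out 1 mouse gave -0.29 to 0.28 for Hspa1a and -0.40 to 0.01 for Hspa1b, none called.

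The count of 19 called probe sets between the sides of MCAO brains was 30 without the 4 arrays, 64 with array weights, 29 with mouse as a random block, 0 with no replicate block, 9 with only the MCAO mice, 6 with quantile normalization, 29 with no replicate block on the 20 arrays, and 10 to 23 without 1 mouse. The count of 1 between occluded and sham IP hemispheres was 33 without the 4 arrays, 50 with weights and 0 to 17 without 1 mouse. Counts of 0 became 1 with weights (CL), with a random block (interaction), and without sham mouse 3 (sham sides, 0 to 1). For Hspa1a and Hspa1b, 190 values under alternatives kept direction and call, 10 changed sign, 8 lost a call and 4 gained one. Causes were not tested, and both genes lay near background on many CL and sham arrays.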
